A study of Mus musculus with 6 samples.

Results

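The mevalonate pathway up to squalene was described in livers of male mice through 9 genes: Acat2, Hmgcs1, Mvk, Pmvk, Mvd, Idi1, Fdps, Fdft1 and Ggps1. A gene entered by its symbol in the array's annotation and was read from the probe set (a group of probes summarised as 1 value) with the highest mean over all arrays. This gave 8 of the 9 genes, each with 1 probe set, out of 30702 named genes and 65956 probe sets. Probe sets annotated to several genes were left out. No probe set annotated to 1 gene carries the symbol of Acat2, and that gene is not analysed here. The study profiled total liver RNA of 6 male offspring aged 8 weeks, with 1 Affymetrix array per mouse. The HFD-inulin group holds 3 offspring of mothers given inulin, a fermentable plant fibre, and the HFD group holds 3 offspring of mothers on a high-fat diet. Both titles name HFD, so inulin came with, and not in place of, that diet as far as the titles say. The dose and duration of inulin, the mouse strain, the diet of the offspring and the number of litters could not be read from the labels, so p-values measure only the spread between these samples.

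The pathway turns acetyl-CoA into isoprenoid units and joins them into squalene, the precursor of cholesterol. Its genes are textbook targets of SREBP2, a membrane-bound transcription factor that is released when sterols in the endoplasmic reticulum run low, and the liver is a main site of this synthesis. Branches leave the pathway before squalene to supply ubiquinone, dolichol and the prenyl groups that anchor proteins to membranes.

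Values are the authors' deposited log2 signals, in which a difference of 1 is a doubling, and the median over all probe sets lay between 1.17 and 1.26 on the arrays. The arrays stood apart in a way that crosses the groups. Chromosome Y probe sets whose 6 values are identical to those of another probe set averaged 1.91, 1.60 and 3.15 on HFD-inulin arrays 1 to 3, against 1.34, 3.24 and 2.99 on HFD arrays 1 to 3. HFD-inulin arrays 1 and 2 with HFD array 1 are therefore called the low-signal arrays, and HFD-inulin array 3 with HFD arrays 2 and 3 the high-signal arrays. The cause of the split is not known. Of 12 hepatocyte markers 10 were measured, and their mean log2 signal was 10.21 to 10.28 in HFD-inulin and 10.36 to 10.42 in HFD, so hepatocyte transcripts were abundant on every array. By gene, 3 of the 10 had a higher mean in HFD-inulin, and the median difference was -0.06. The mean over 8 neutrophil markers was 1.33 to 1.72 in HFD-inulin, highest on array 2, and 1.27 to 1.41 in HFD, and that over 8 Kupffer cell and macrophage markers was 4.75 to 4.94 in HFD-inulin and 4.91 to 5.08 in HFD. In bulk tissue, fewer cells of a type and less RNA per cell cannot be told apart.

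All 8 measured genes had a higher mean in HFD-inulin than in HFD, and none passed the test. The log2 differences ran from 0.02 in Mvd to 0.62 in Fdps with a median of 0.14, against a median of -0.02 over all probe sets. Fdps, Hmgcs1 and Idi1 had the 3 largest differences and the other 5 lay between 0.02 and 0.17. With limma and Benjamini-Hochberg adjustment over all 65956 probe sets, 0 of the 8 had an adjusted p under 0.05 (adjusted p from 0.902 to 0.979), and 0 also had an unadjusted p under 0.05. No probe set of the 65956 passed the adjusted threshold in limma (0%), while 3399 (5.15%) had an unadjusted p under 0.05. A higher mean in HFD-inulin was found for 43.5% of all probe sets, and for 50.6% of the 19918 named genes at or above the median signal. The 8 genes were measured on the same 6 livers, so their shared direction is not 8 separate observations. The count was 5 of 8 without HFD array 2 and 6 of 8 with the split as a block.

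**Figure D1:**
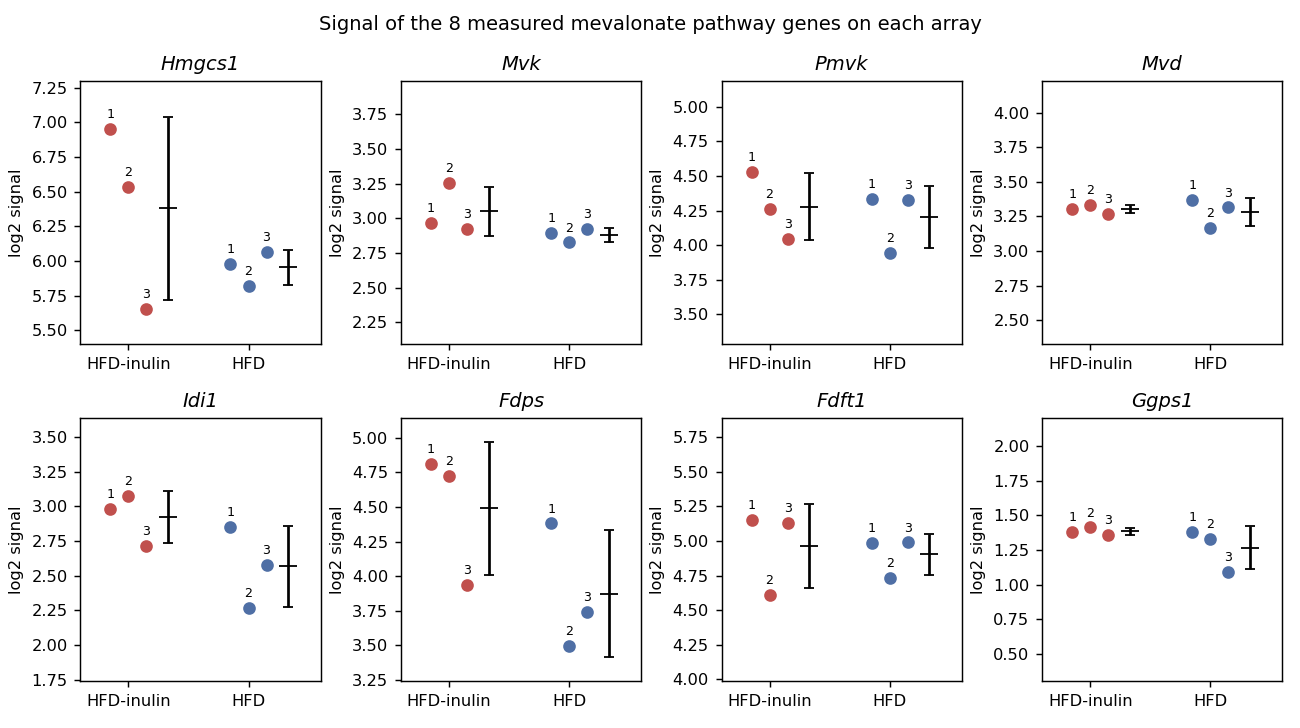
Log2 signal of each measured gene on each array, HFD-inulin at the left and HFD at the right of each panel, with array numbers above the points and the group mean and SD (n = 3) beside them. All vertical axes span the same range. Hmgcs1 and Fdps are high on HFD-inulin arrays 1 and 2 and not on array 3, and Mvd and Ggps1 differ little between arrays.

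As background, the promoters of 4 genes are shown: Hmgcs1 and Idi1, which varied widely over the arrays, and Mvk and Mvd, which varied less. A link between promoter letters and signal was not tested. Each window runs from 250 bases before to 50 after the gene's start in RefSeq (GRCm38.p6). Capitals mark the SREBP element core, searched as TCACNCCAC and, within it, CACNCCAC, and the CCAAT box bound by NF-Y, a partner factor of SREBP, which reads ATTGG on the opposite strand. The windows are chr13:119690101-119690400 on the plus strand for Hmgcs1, chr5:114444019-114444318 on the plus strand for Mvk, chr8:122443373-122443672 on the minus strand for Mvd and chr13:8885356-8885655 on the plus strand for Idi1.
Hmgcs1: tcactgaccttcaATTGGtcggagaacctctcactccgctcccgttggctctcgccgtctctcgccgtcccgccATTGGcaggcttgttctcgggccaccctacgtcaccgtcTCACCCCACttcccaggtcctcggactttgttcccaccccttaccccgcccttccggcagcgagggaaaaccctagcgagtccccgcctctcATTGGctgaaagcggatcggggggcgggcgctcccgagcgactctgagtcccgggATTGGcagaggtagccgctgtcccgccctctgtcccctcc
Mvk: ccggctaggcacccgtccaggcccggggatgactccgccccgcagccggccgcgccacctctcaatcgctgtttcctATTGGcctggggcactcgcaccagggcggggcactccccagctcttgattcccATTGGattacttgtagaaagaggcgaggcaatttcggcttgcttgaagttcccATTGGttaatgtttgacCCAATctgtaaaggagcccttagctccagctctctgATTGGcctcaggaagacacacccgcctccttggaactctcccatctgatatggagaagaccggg
Mvd: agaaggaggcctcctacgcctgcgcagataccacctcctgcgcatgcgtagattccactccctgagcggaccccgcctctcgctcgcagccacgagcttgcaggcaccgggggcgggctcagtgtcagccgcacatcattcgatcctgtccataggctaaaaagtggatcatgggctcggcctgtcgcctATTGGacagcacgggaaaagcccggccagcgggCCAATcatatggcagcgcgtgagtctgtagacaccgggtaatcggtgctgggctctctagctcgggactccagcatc
Idi1: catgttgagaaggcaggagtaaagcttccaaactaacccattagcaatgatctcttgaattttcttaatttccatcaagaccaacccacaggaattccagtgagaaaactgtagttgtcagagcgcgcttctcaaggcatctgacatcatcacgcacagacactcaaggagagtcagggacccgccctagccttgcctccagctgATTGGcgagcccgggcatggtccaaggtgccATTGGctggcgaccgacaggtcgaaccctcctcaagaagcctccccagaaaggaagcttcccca
The Hmgcs1 window held the SREBP core, starting 137 bases before the gene's start, and 4 CCAAT boxes. The Mvk window held 5 CCAAT boxes, and the Mvd and Idi1 windows held 2 each. RefSeq gave 7 windows for 6 measured genes, Pmvk having a pair, and 6 of the 7 held a CCAAT box, against 37.4% of all 32851 windows searched on both strands. TCACNCCAC was in 1 of the 7, against 1.24% of all windows, and CACNCCAC in the same 1, against 6.24%. The Sp1 box GGGCGG, which is not marked, was in 4 of the 7, against 35.7%. Fdps and Fdft1 were not matched. These are matches of letters in short windows and not measured binding.

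Hmgcs1 encodes the cytosolic HMG-CoA synthase, which condenses acetoacetyl-CoA with acetyl-CoA at the entry to the pathway. Its log2 signal was 6.95, 6.53 and 5.66 on HFD-inulin arrays 1 to 3, against 5.98, 5.82 and 6.07 on HFD arrays 1 to 3. HFD-inulin arrays 1 and 2 lay above every HFD array, and array 3 lay below every one. HFD-inulin livers averaged 6.38 ± 0.66 and HFD livers 5.95 ± 0.13 (SD, n = 3 each), a 1.34-fold ratio with a 95% interval of 0.808 to 2.24 and a limma adjusted p of 0.909. Among named genes at or above the median signal, 4.43% had a log2 difference at least as large in either direction. Leaving out HFD-inulin array 3 moved the difference of 0.43 to 0.79 (limma adjusted p = 0.147), and leaving out HFD-inulin array 1 moved it to 0.14. Taken within the low-signal arrays it was 0.77, and within the high-signal ones -0.29; the change of sign was not tested. Among the 8 genes, Hmgcs1 had the largest excess over the HFD mean on any array, 0.997 on HFD-inulin array 1, and was the only gene to lie below every HFD array on HFD-inulin array 3.

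Mvk, mevalonate kinase, and Pmvk, phosphomevalonate kinase, add the phosphates to mevalonate, and Mvd, mevalonate diphosphate decarboxylase, then makes isopentenyl diphosphate. The log2 signal of Mvk was 2.97, 3.26 and 2.93 on HFD-inulin arrays 1 to 3, against 2.89, 2.83 and 2.92 on HFD arrays 1 to 3. It was the 1 gene of 8 whose groups did not overlap, where 10.3% of all probe sets and 12.9% of named genes at or above the median signal did not, and the gap between the lowest HFD-inulin and the highest HFD array was 0.000397. HFD-inulin livers averaged 3.05 ± 0.18 and HFD livers 2.88 ± 0.05 (SD, n = 3 each), a log2 difference of 0.17 (SE 0.10, limma adjusted p = 0.902), and HFD-inulin array 2 stood highest. Without that array the difference was 0.065, and it was 0.22 among the low-signal and 0.050 among the high-signal arrays. After quantile normalization or centring of the arrays on their medians the groups overlapped.

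Pmvk had 4.53, 4.26 and 4.04 on HFD-inulin arrays 1 to 3, against 4.34, 3.94 and 4.33 on HFD arrays 1 to 3. Its groups overlapped almost fully, and the difference of 0.07 (95% interval -0.30 to 0.45) was -0.09 within the high-signal arrays. Mvd had 3.31, 3.33 and 3.27 on HFD-inulin arrays 1 to 3, against 3.37, 3.17 and 3.32 on HFD arrays 1 to 3. It was the least variable of the 8 genes, with a range of 0.20 over all 6 arrays (1.15-fold), and its difference was 0.02 with a 95% interval of -0.16 to 0.19. The upper end of that interval is a 1.14-fold ratio, the narrowest bound among the 8 genes.

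Idi1, isopentenyl-diphosphate isomerase, interconverts the isoprenoid units, and Fdps, farnesyl diphosphate synthase, joins them into farnesyl diphosphate. Idi1 had 2.98, 3.08 and 2.72 on HFD-inulin arrays 1 to 3, against 2.85, 2.27 and 2.58 on HFD arrays 1 to 3. HFD-inulin arrays 1 and 2 were above every HFD array, and HFD-inulin array 3 was above HFD arrays 2 and 3 and below HFD array 1. Idi1 averaged 2.93 ± 0.19 in HFD-inulin livers and 2.57 ± 0.29 in HFD livers (SD, n = 3 each), a log2 difference of 0.36 (SE 0.17) with the smallest unadjusted limma p of the 8 genes, 0.0697 (adjusted p = 0.902). Within the parts of the split the difference was 0.17 (low-signal) and 0.29 (high-signal), and without HFD array 2 it was 0.21. The paralog Idi2 was read from 2 probe sets with means of 0.72 and 1.08, below the median probe set of 1.22, and differed by -0.05 and -0.11 (limma adjusted p = 0.944 and 0.909).

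Fdps had 4.81, 4.73 and 3.94 on HFD-inulin arrays 1 to 3, against 4.38, 3.50 and 3.74 on HFD arrays 1 to 3. HFD array 1 exceeded HFD-inulin array 3, which kept the groups from separating, and the 2 highest arrays were again HFD-inulin 1 and 2. Fdps averaged 4.49 ± 0.48 in HFD-inulin livers and 3.87 ± 0.46 in HFD livers (SD, n = 3 each), a 1.53-fold ratio with a 95% interval of 0.927 to 2.54 and a limma adjusted p of 0.902. Fdps had the largest log2 difference of the 8 genes, 0.62, which 1.37% of named genes at or above the median signal equalled or exceeded in size. Leaving out HFD-inulin array 3 moved it to 0.89, and leaving out HFD array 2 moved it to 0.43. It was positive in both parts of the split, at 0.39 among low-signal and 0.32 among high-signal arrays, and with the split as a block it was 0.35, with an unadjusted limma p of 0.00783 and an adjusted p of 0.926. In that fit 5.19% of all probe sets had an unadjusted p under 0.05, and Fdps was the 1 of the 8 genes that did.

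Fdft1, squalene synthase, commits farnesyl diphosphate to sterols, while Ggps1, geranylgeranyl diphosphate synthase, diverts it to protein prenylation. Fdft1 had 5.15, 4.61 and 5.13 on HFD-inulin arrays 1 to 3, against 4.99, 4.73 and 4.99 on HFD arrays 1 to 3. HFD-inulin array 2 was the lowest of all 6 arrays for Fdft1, whereas it was first or second in 6 of the other genes. The difference of 0.06 (95% interval -0.33 to 0.45) was -0.11 among the low-signal arrays and 0.27 among the high-signal ones. Ggps1 had 1.38, 1.41 and 1.36 on HFD-inulin arrays 1 to 3, against 1.38, 1.33 and 1.09 on HFD arrays 1 to 3. These values lie close to the median probe set, where little signal stands over background, and its difference of 0.12 was 0.03 without HFD array 3.

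**Figure D2:**
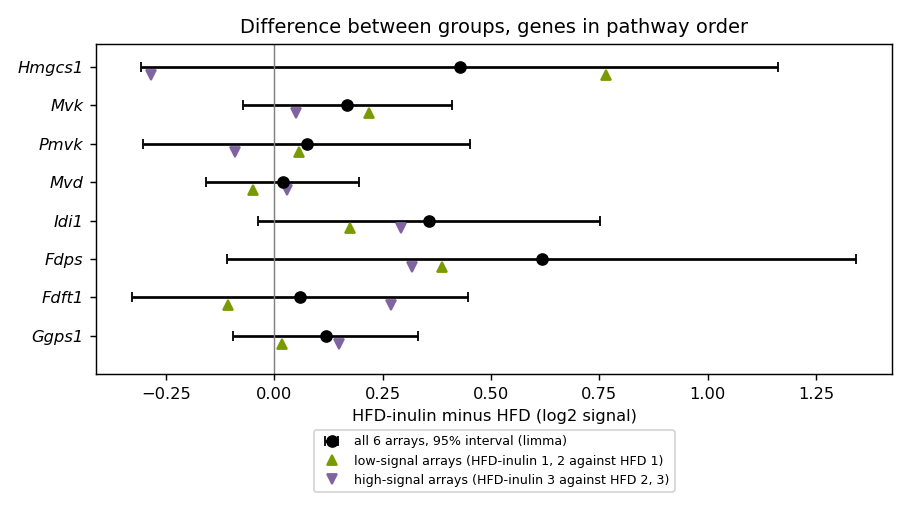
Log2 difference of HFD-inulin minus HFD for each gene in pathway order, from all 6 arrays with its 95% interval (circles and bars, limma) and within each part of the split (triangles). All 8 circles lie above 0 and all 8 intervals include 0, and the triangles of Hmgcs1, Pmvk, Mvd and Fdft1 lie on opposite sides of 0.

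The 8 genes did not share 1 profile over the arrays. Relative to the HFD mean, the mean log2 signal over the 8 genes was 0.39, 0.28 and 0.01 on HFD-inulin arrays 1 to 3, against 0.16, -0.17 and 0.01 on HFD arrays 1 to 3. HFD-inulin array 3 was thus at the level of HFD array 3 and below HFD array 1. On HFD-inulin array 1 all 8 genes were above their HFD mean, on array 2 it was 7, and on array 3 it was 5. On HFD array 1 all 8 were above that mean too, and on HFD array 2 it was 1 of 8. HFD array 2 held the lowest value of 5 of the 8 genes. Profiles were compared by the root mean square distance between log2 values centred on each gene's mean over the 6 arrays. The nearest pair was Mvk and Mvd, 0.12 apart, both of them genes of small range. The farthest was Fdps and Fdft1, 0.52 apart, which encode consecutive enzymes on the way to squalene, followed by Hmgcs1 and Fdft1 at 0.48.

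**Figure D3:**
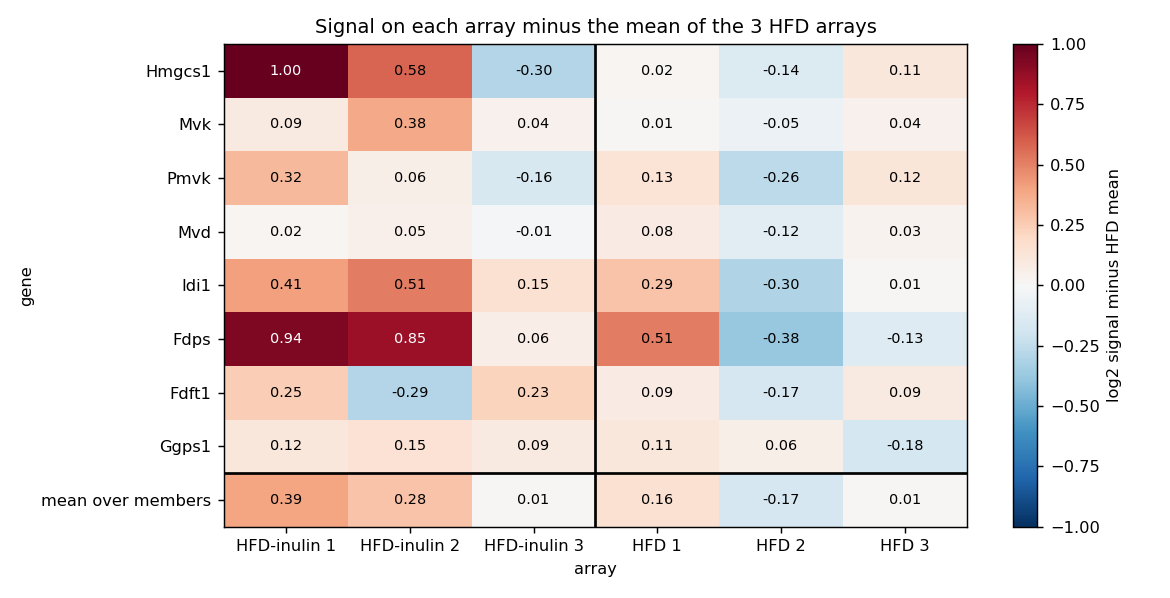
Log2 signal of each gene on each array minus the mean of the 3 HFD arrays, HFD-inulin arrays at the left, with the mean over the 8 genes in the last row. Hmgcs1 reaches 0.997 and Fdps 0.94 on HFD-inulin array 1, and the means over genes on HFD-inulin array 3 and HFD array 3 are both 0.01.

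Part of this variation ran along the split of the arrays, which crosses the groups without balancing them. The mean was higher in the low-signal than in the high-signal arrays for 7 of the 8 genes, Fdft1 being the exception. The difference between these parts was 0.91 for Fdps, 0.64 for Hmgcs1 and 0.45 for Idi1, larger in each than the difference between the diet groups. HFD-inulin arrays 1 and 2 are both low-signal, so these values mix the split with the diet groups. Within HFD, low-signal array 1 had 5.98 for Hmgcs1, between arrays 2 and 3 at 5.82 and 6.07. For Fdps and Idi1, HFD array 1 lay above both. Within HFD-inulin, high-signal array 3 was the lowest for each of these genes. All 3 low-signal arrays lay above all 3 high-signal arrays for Fdps, Idi1 and Ggps1, or 3 of 8, where 12.7% of named genes at or above the median signal did so. The mean log2 signal over 8 acute phase genes, which hepatocytes induce in inflammation, was 8.44, 9.55 and 6.19 on HFD-inulin arrays 1 to 3, against 6.51, 6.75 and 6.02 on HFD arrays 1 to 3. It was high on the same HFD-inulin arrays as Hmgcs1 and Fdps, though not on HFD array 1, and its part in the result was not tested. The 5 named genes with profiles nearest to the mean of the 8 genes over the 6 arrays, of 15026 compared, were Tmx2, Timm50, Msantd4, Ndufa12-ps and Ciao2a, at distances of 0.03 to 0.04. The probe set named for Tmx2 is numbered on another chromosome than the gene, and Ndufa12-ps is a pseudogene, so these names are uncertain.

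Lists of genes that border the pathway had medians on both sides of 0. In the steps from squalene to cholesterol, 9 of 12 listed genes were measured, and 7 had a higher and 2 a lower mean in HFD-inulin, with a median of 0.27, or 0.29 among the low-signal and 0.06 among the high-signal arrays. Msmo1 (0.59), Cyp51 (0.54) and Lss (0.35), enzymes acting on lanosterol and its products or making it, were higher. Their differences were 0.41, 0.50 and 0.48 among the low-signal and 0.66, 0.28 and 0.06 among the high-signal arrays. The sterol desaturase gene Sc5d was lower (-0.32), with -0.55 among the low-signal and 0.04 among the high-signal arrays. Among users of isoprenoids 13 of 14 measured genes were higher, with a median of 0.09, or 0.10 and 0.03 in the same parts. Rce1, the protease that trims prenylated proteins, had a difference of 0.40, followed by Zmpste24 (0.19), Coq2 of ubiquinone synthesis (0.19) and the prenyltransferase subunit gene Fnta (0.13). In that order they differed by 0.53, 0.26, 0.22 and 0.0093 among the low-signal and 0.12, 0.068, 0.059 and 0.19 among the high-signal arrays. Genes of sterol sensing and uptake were mixed, 5 higher and 6 lower of 11, with a median of -0.10, or -0.12 and -0.04 in the same parts. Srebf2, which encodes SREBP2, averaged 4.39 ± 0.14 in HFD-inulin livers and 4.18 ± 0.01 in HFD livers (SD, n = 3 each). Its difference was 0.21, or 0.29 and 0.061 in the same parts. Mylip, whose product degrades the LDL receptor, was lower (-0.24, or -0.27 and -0.069). Erlin2 and Npc2 were at -0.11 each.

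Among suppliers of acetyl-CoA, thiolases and ketogenic enzymes, 5 of 6 measured genes had a lower mean in HFD-inulin, with a median of -0.28. That median was -0.54 among the low-signal and -0.0056 among the high-signal arrays. Acat3, an acetyl-CoA acetyltransferase gene that lies near Acat2, had 6.95, 6.31 and 7.30 on HFD-inulin arrays 1 to 3, against 7.51, 7.50 and 7.63 on HFD arrays 1 to 3. Its groups did not overlap, and the log2 difference was -0.69 (SE 0.23, limma adjusted p = 0.902), or -0.88 among low-signal and -0.27 among high-signal arrays. Whether probes of Acat3 also read Acat2, a close copy, was not checked. Acss2, which makes acetyl-CoA from acetate, and Acly, which makes it from citrate, were lower by mean (-0.36 and -0.32), and Acat1, the mitochondrial thiolase gene, was higher (0.37). These 3 differences were large in the low-signal arrays (-0.72, -0.58 and 0.57) and near 0 or turned in the high-signal arrays (0.0064 for Acss2, 0.11 for Acly and -0.018 for Acat1). Of the 40 genes in these 4 lists 0 passed the adjusted threshold in limma, and 6 had an unadjusted p under 0.05, 5 higher and 1 lower, where 2.52% of all probe sets were higher and 2.64% lower by that rule. The groups did not overlap in 5 of the 40 (Msmo1, Lss, Rce1 and Srebf2 higher and Acat3 lower), against 12.9% of named genes at or above the median signal. The difference between the lists was not tested.

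**Figure D4:**
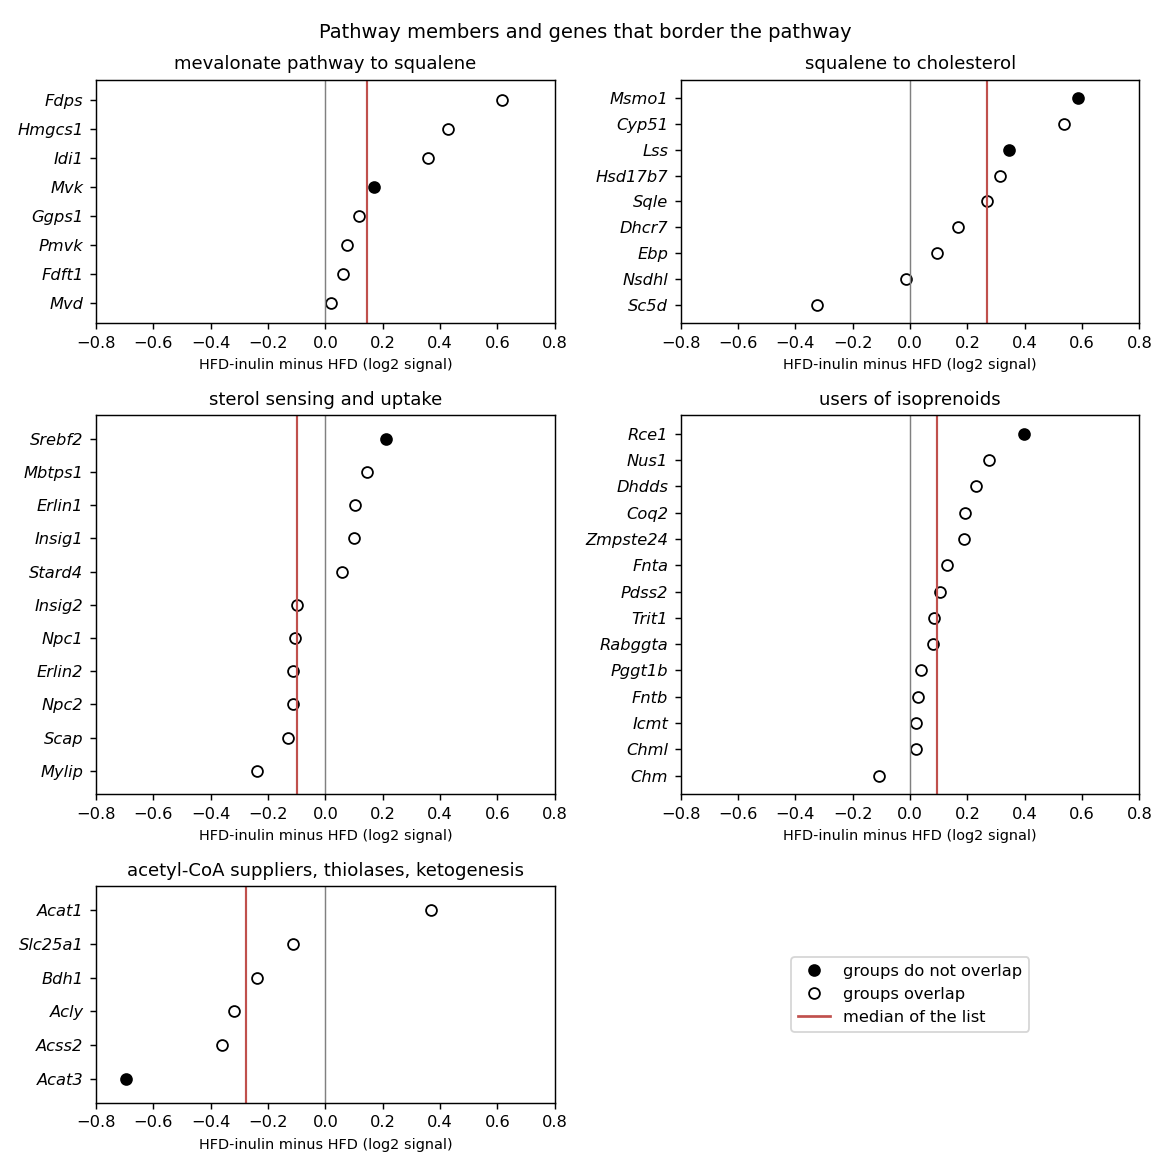
Log2 difference of HFD-inulin minus HFD for the 8 pathway genes and for the measured genes of 4 bordering lists, with the median of each list as a line and filled points where the groups do not overlap. The medians are 0.14 for the pathway, 0.27 for squalene to cholesterol, -0.10 for sterol sensing and uptake, 0.09 for users of isoprenoids and -0.28 for acetyl-CoA suppliers, thiolases and ketogenesis.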

How the data were processed

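Liver RNA of 6 mice was hybridised to 6 arrays. The authors deposited log2 signals, for which the submitters' processing notes name Affymetrix Expression Console 1.0. How probes were summarised, background-corrected or filtered, and the build, is not given in the sources used here. A log2 scale was inferred from the range of the values, -0.13 to 12.1. Detection calls and scanner output were not used. Platform symbols, updated through RefSeq, named 31258 of 65956 probe sets with 1 gene (30702 genes). Another 1492 had several genes and 33206 had no listed symbol.

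HFD-inulin minus HFD was fitted with limma 3.58.1 (R 4.3.3, lmFit and eBayes) on all probe sets and arrays, with no filter or covariate, two-sided, with Benjamini-Hochberg adjustment and a threshold of 0.05. The fits were tested on simulated data. The precision is limited by 3 arrays per group. The members, lists and settings were chosen with earlier results of these data known. The text names every member and up to 4 genes per list, those with the smallest unadjusted p. Differences within a part of the split come from 1 model over all arrays, in which the lone array of a group is assumed to vary like the others. Same-numbered arrays did not all deviate together (r across probe sets of 0.26, -0.28 and 0.40 for numbers 1 to 3), so the numbers in the titles were not taken to pair them.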

Additional observations from a re-analysis of the deposited data

How the results depend on the processing

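The 8 genes were refitted under 16 other settings, and in none did a gene pass the adjusted threshold (smallest adjusted p 0.147, Hmgcs1 without HFD-inulin array 3). Mvk, Idi1, Fdps and Ggps1 kept a positive difference in all 16. The exceptions were differences of -0.017 for Pmvk and -0.010 for Mvd with the split as a block, -0.29 for Hmgcs1 and -0.091 for Pmvk within the high-signal arrays, and -0.049 for Mvd and -0.11 for Fdft1 within the low-signal arrays. With 1 array left out, Pmvk ran from -0.054 to 0.19, Mvd from -0.039 to 0.061 and Fdft1 from -0.033 to 0.24. The cause was not tested. The number of genes with a higher mean ran from 5 to 8 with 1 array left out. The number whose groups did not overlap was 0 after quantile normalization or median centring. It was 6 in either part of the split and 1 to 5 with 1 array left out. With fewer arrays, groups fail to overlap more often by arrangement alone. The share of all probe sets was not counted there, so the counts from fewer arrays are not read as a result about the genes. Over all probe sets limma called 4 with a trended and robust prior and 4 at an adjusted p under 0.1, and ordinary least squares called 0. The replicate block left the median at 0.14 and the calls at 0. Each gene has 1 probe set annotated to it alone, so other probe sets gave no value. Values near the median probe set, as in Ggps1, limit what can be seen.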
